A study of Mus musculus with 6 samples.

Results

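Nonclassical MHC class I genes, Cd1d1, Mr1 and the peptidase gene Erap1 were followed in tumour-associated macrophages sorted from Lewis lung carcinoma, a transplantable mouse lung cancer line. The genes were chosen by name, as the rows H2-T23, H2-Q4, H2-Q6, H2-Q7, H2-M3, Cd1d1, Mr1 and Erap1, which are 8 of the 55487 genes counted. Each of the 8 names matched 1 Ensembl gene in GENCODE M21 on GRCm38, and all 8 had enough reads to be tested. All mice were C57BL/6, carried the tumour under the skin of one flank and were killed 15 to 17 days after injection. No genotype, treatment or age divides the samples. The cells were enriched for CD11b, sorted as positive for CD11b and F4/80 and negative for Ly6C and Ly-6G, and parted by surface MHC class II into the labels MHC-II high and MHC-II low. There are 3 total RNA libraries per label, numbered by batch 1 to 3. The labels do not say whether the 3 libraries came from separate mice or from pooled tumours, so p-values reflect only how far these libraries spread, which could be technical.

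Classical class I molecules show peptides from inside the cell to CD8 T cells, and nearly every cell makes them. Nonclassical molecules vary little between individuals, mostly sit at lower levels, and present a narrow range of ligands to innate-like lymphocytes and natural killer cells. H2-T23 encodes Qa-1, which presents leader peptides of other class I chains to the CD94 and NKG2A receptor. H2-Q6 and H2-Q7 encode forms of Qa-2, a molecule held in the membrane by a lipid anchor, and H2-Q4 is a further heavy chain gene of the Q region. H2-M3 presents peptides that begin with formyl-methionine, as bacterial and mitochondrial proteins do. CD1d, the product of Cd1d1, presents lipids to natural killer T cells, and MR1 presents vitamin B metabolites of microbes to mucosal-associated invariant T cells. Erap1 encodes the endoplasmic reticulum peptidase that trims peptides to the length that class I molecules hold.

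Transcripts of MHC class II itself went against the labels, so the groups are named by label throughout and no direction below is that of a verified sort. The level of H2-Aa, which encodes an MHC class II chain, was 5.52 ± 1.14 CPM under the high label against 1350 ± 172 CPM under the low label (mean ± SD of 3 libraries, as everywhere below). CPM are read counts divided by TMM-scaled library sizes and put on a common per-library scale. Reads in genes numbered 10202879 to 25473051 per library. Labelled low replicate 3 stood apart, with 47.3% of its reads in genes on 1 rRNA copy, against 3.85% to 13.5% in the other 5 libraries. CPM also followed the GC content of genes to a different degree in each library. The slope was 0.68 on the log2 scale per 10 percentage points of GC in labelled low replicate 3 and 0.18 in labelled low replicate 1, and lay between -0.38 and 0.03 in the other 4. The macrophage identity of the cells was checked on 12 marker genes, whose summed level was 11120 to 13550 CPM under the high label and 7928 to 14610 CPM under the low label, and all 12 had reads.

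The 4 class I promoters printed here were chosen because H2-Q6, H2-Q7 and H2-Q4 are neighbouring genes of the Q region and H2-M3 lies further along the chromosome, and because the labels do not overlap for H2-Q6 and H2-Q7 but do for H2-M3. RefSeq promoter windows on GRCm38.p6, from 250 bases before to 50 after a transcript start, were found for 7 of the 8 genes, Cd1d1 being the one without. The stretches below, 5′ to 3′ on the plus strand, lie at chr17:35379434-35379573 for H2-Q4, chr17:35424668-35424807 for H2-Q6, chr17:35439012-35439151 for H2-Q7 and chr17:37270103-37270219 for H2-M3. Capitals mark matches to GAANNGAAA (an interferon response type motif), the kappaB type motif (3 G, any 2 bases, 2 T, any 1 base, 2 C), CCAAT and TGACG (a cAMP response type motif), each searched on both strands.
H2-Q4: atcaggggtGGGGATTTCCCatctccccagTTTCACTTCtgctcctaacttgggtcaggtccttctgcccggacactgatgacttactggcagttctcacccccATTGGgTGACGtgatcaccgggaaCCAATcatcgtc
H2-Q6: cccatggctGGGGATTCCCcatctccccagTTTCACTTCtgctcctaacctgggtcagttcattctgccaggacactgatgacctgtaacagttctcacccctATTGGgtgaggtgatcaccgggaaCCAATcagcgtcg
H2-Q7: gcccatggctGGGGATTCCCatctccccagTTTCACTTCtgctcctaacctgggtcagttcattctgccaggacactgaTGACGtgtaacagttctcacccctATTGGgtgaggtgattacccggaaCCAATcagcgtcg
H2-M3: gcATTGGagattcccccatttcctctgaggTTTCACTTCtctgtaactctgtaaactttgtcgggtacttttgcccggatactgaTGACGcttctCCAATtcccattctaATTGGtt

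The stretches of H2-Q6 and H2-Q7 were 96.5% identical over 141 aligned columns, and that of H2-Q4 was 86.7% identical to that of H2-Q6. H2-M3 shared 53% with H2-Q6. The letters TTTCACTTC, the interferon response type match on the reverse strand, were the same in all 4, beginning 153, 152, 113 and 101 bases before the transcript start in H2-Q4, H2-Q6, H2-Q7 and H2-M3. The kappaB type match stood 20 or 21 bases before them in the 3 H2-Q genes, with 2 overlapping matches in H2-Q4, and was not found in the H2-M3 window. Windows of the classical chain genes H2-K1 and H2-D1 also held both matches. The labels overlap in CPM for H2-K1, H2-D1 and H2-Q4 and do not for H2-Q6 and H2-Q7. Whether the kappaB type match goes with a difference between the labels was not tested. Of all 32851 promoter windows of the same length, 7.52% held the interferon response type motif, 4.79% the kappaB type motif, 37.4% CCAAT and 20.8% TGACG. The H2-T23 window held 1 CCAAT, and those of Mr1 and Erap1 none of the 4 motifs. The Erap1 window, chr13:74639603-74639902, lies wholly within the gene as GENCODE M21 annotates it, from 74639568. It therefore holds no sequence before that start. The H2-T23 window ends at 36032951, not far beyond the GENCODE start at 36032855 on the minus strand. Such matches describe letters and were not tested for binding.

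**Figure D1:**
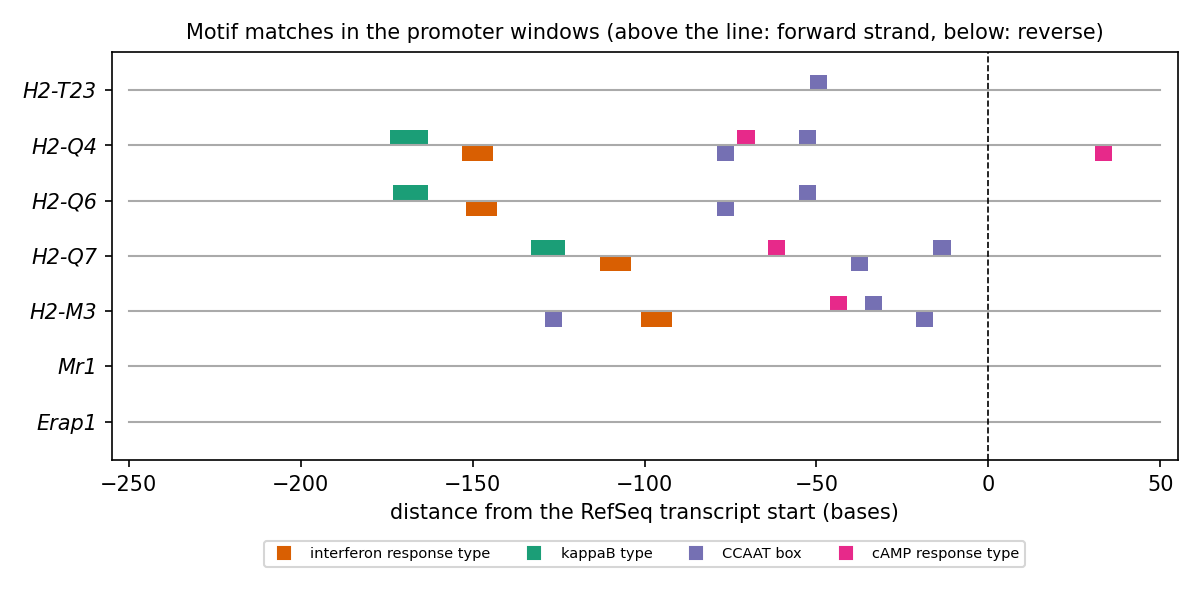
Positions of the motif matches (boxes) in the promoter windows of 7 genes, by distance in bases from the RefSeq transcript start (dashed line), with forward strand matches above and reverse strand matches below each line. In the 3 H2-Q genes the kappaB type match comes before the interferon response type match and both before the CCAAT matches, while TGACG differs in place between H2-Q4 and H2-Q7 and is not found in H2-Q6. H2-M3 has the interferon response type match without the kappaB type one, and Mr1 and Erap1 have none. The Erap1 window lies wholly within the gene as GENCODE M21 annotates it.

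None of the 8 genes differed between the labels at an adjusted p of 0.05 by edgeR, where 63 of all 14140 tested genes (0.446%) did, 0.354% lower and 0.0919% higher in the libraries labelled high. DESeq2, which called 2.25% of its tested genes, and limma-voom, which called 10 higher and 42 lower of 14140, also called 0 of the 8. The GC offset (2.59% of genes called) and the batch block (0.29%) called 0 as well; the offset takes out each library's trend over GC content. At an unadjusted p of 0.05, edgeR counted 4 of the 8, with H2-Q6, H2-Q7 and Cd1d1 lower and Mr1 higher in the libraries labelled high, where 12.1% of all tested genes passed, 7.99% lower and 4.06% higher. The count was 2 without labelled low replicate 3 (H2-Q6 and H2-Q7), where 8.91% of all tested genes passed, and 1 without labelled high replicate 2 (H2-Q6), where 5.89% did. It was 1 without batch 3 (H2-Q6; 6.65% of all genes) and 0 with total counts as the scale (4.58%). Without labelled low replicate 2 it was 6, H2-T23 and H2-Q4 being added, and 35% of all genes passed. The CPM ranges of the labels did not overlap for the same 4 genes, against 19.9% of all tested genes, 9.48% with the lower and 10.5% with the higher values under the high label. In 5 of the 8 the log2 ratio had the same sign in all 3 batches, against 40.1% of all tested genes. The median log2 fold change of the 8 was -0.42, labelled high over labelled low, beside -0.02 over all tested genes. The 8 genes were proposed with results of these libraries in view, so these counts are descriptions.

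H2-Q6 and H2-Q7 stood lower in every library labelled high than in any labelled low. H2-Q6, on chromosome 17 from 35424850 to 35430055, stood at 7.40, 5.35 and 7.15 CPM in labelled high replicates 1, 2 and 3 and at 12.9, 10.2 and 17.7 CPM in labelled low replicates 1, 2 and 3. All 3 libraries labelled low lay above all 3 labelled high, and the widest gap was in batch 3. The means were 6.63 ± 1.12 and 13.6 ± 3.77 CPM, which edgeR put at -1.02 ± 0.27 (log2 fold change ± standard error; adjusted p 0.218). The GC offset brought it to -0.59 (adjusted p 0.151) and total counts to -0.66 (adjusted p 0.848). The log2 ratios within batches 1, 2 and 3 were -0.81, -0.93 and -1.30.

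H2-Q7, the neighbouring Qa-2 gene on chromosome 17 from 35439155 to 35443773, had the same order of libraries. It stood at 12.1, 7.93 and 10.7 CPM in labelled high replicates 1 to 3 and at 20.2, 13.3 and 25.2 CPM in labelled low replicates 1 to 3. The labels did not overlap, although labelled low replicate 2 and labelled high replicate 1 were close. By edgeR the log2 fold change was -0.92 ± 0.29 (adjusted p 0.299). When batch was a block in a fit that also held the GC offset, the log2 fold change was -0.70 and the adjusted p 0.0255, a setting in which 4.34% of all tested genes were called. Without labelled low replicate 2, H2-Q6 and H2-Q7 had adjusted p values of 0.038 and 0.0375 by edgeR, where 7.16% of all tested genes passed. The 2 libraries then left under the low label are those with the most positive GC slopes.

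H2-Q6 and H2-Q7 share stretches with each other and with further class I genes, and reads that align to several places were not assigned to a gene. Of the distinct 50-base words in H2-Q6 transcripts, 35% also occur in transcripts of other genes, and 26.4% of those of H2-Q7 do. The pair itself shared 284 such words, H2-Q6 shared 251 with H2-Q4, and H2-Q7 shared 631 with H2-Q10 and 393 with H2-Q5. At 100 bases the shares were 13% and 12%. These shares cover annotated transcripts only, and H2-Q8 and H2-Q9 had no entry under those names in GENCODE M21 or the count tables. Whether reads of such genes were counted on H2-Q6 or H2-Q7 was not tested. The read length is not given in the sources used here, so how many reads each gene lost to its relatives is uncertain. Reads on H2-Q7 made up 56.5% to 62.1% of the reads on the pair in the 6 libraries, with overlapping ranges for the labels (60.6% ± 1.34 labelled high and 58.8% ± 2.24 labelled low, exact two-sided permutation p = 0.4, n = 3 each).

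The other 3 heavy chain genes were nearer to each other in the labels. H2-Q4, on chromosome 17 from 35379617 to 35385290, stood at 30.2, 21.4 and 26.2 CPM in labelled high replicates 1 to 3 and at 36.2, 26.9 and 43.4 CPM in labelled low replicates 1 to 3. Labelled low replicate 2 lay within the range of the libraries labelled high. By edgeR the log2 fold change was -0.45 ± 0.24 (adjusted p 0.451), and it was -0.07 with the GC offset. An antisense gene, Gm11131, covers 496 of its 2596 exon bases. The strand setting of the counting is not given in the sources used here, so reads of the 2 genes cannot be told apart with certainty.

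H2-T23, which encodes Qa-1 and lies on chromosome 17 from 36029773 to 36032855, stood at 24.1, 18.3 and 15.4 CPM in labelled high replicates 1 to 3 and at 29.9, 17.2 and 29.1 CPM in labelled low replicates 1 to 3. Labelled low replicate 2 sat among the libraries labelled high, and the batches did not go one way. The log2 fold change was -0.39 (95% confidence interval -1.03 to 0.24, adjusted p 0.514 by edgeR) and -0.03 with the GC offset (-0.38 to 0.33).

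H2-M3, the formyl peptide presenter on chromosome 17 from 37270220 to 37274484, was the most even of the genes. It stood at 10.13, 10.74 and 11.69 CPM in labelled high replicates 1 to 3 and at 11.1, 10.6 and 11.8 CPM in labelled low replicates 1 to 3. The ranges lay over one another. The log2 fold change of -0.04 had an adjusted p of 0.928 by edgeR, and its 95% confidence interval reached from a 0.71-fold to a 1.33-fold level. Its sign turned with total counts (0.25) and with the GC offset (0.10). Its transcripts share almost no sequence with other genes, 0.576% of 50-base words.

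The lipid presenter and the metabolite presenter stood on opposite sides. Cd1d1, on chromosome 3 from 86995834 to 86999441, rested on few reads, 53, 26 and 65 in labelled high replicates 1 to 3 and 79, 87 and 35 in labelled low replicates 1 to 3. These were 2.95, 1.16 and 2.32 CPM and 4.21, 3.56 and 6.25 CPM. The labels did not overlap, but the counting intervals did for the nearest pair, 2.21 to 3.86 CPM in labelled high replicate 1 and 2.85 to 4.39 CPM in labelled low replicate 2 (exact Poisson, 95%, for counting error only). By edgeR the log2 fold change was -1.09 ± 0.40 (adjusted p 0.382), and -0.86 without labelled low replicate 3. The log2 ratios within batches 1, 2 and 3 were -0.51, -1.62 and -1.43. Cd1d1 has a mid-range GC content of 47.8%, and its log2 fold change was -1.14 with the GC offset.

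Cd1d2, the second mouse CD1d gene and a close copy of Cd1d1, had 0 reads in all 6 libraries, which allows up to 0.107 to 0.535 CPM (3 reads). GENCODE M21 annotates it as a polymorphic pseudogene. Of the 50-base words of Cd1d1, 19.1% also occur in Cd1d2.

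Mr1, on chromosome 1 from 155127277 to 155146814, stood at 13.6, 17.9 and 17.2 CPM in labelled high replicates 1 to 3 and at 11.5, 12.1 and 7.14 CPM in labelled low replicates 1 to 3. All libraries labelled high lay above all labelled low, with the lowest value in labelled low replicate 3, from 40 reads. The means were 16.3 ± 2.30 and 10.2 ± 2.71 CPM, or 0.65 ± 0.26 as log2 fold change (adjusted p 0.393 by edgeR). It was 0.44 with the GC offset and 0.46 without labelled low replicate 3. None of its 50-base words occur in transcripts of another gene.

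Erap1, the trimming peptidase gene on chromosome 13 from 74639568 to 74693201, stood at 79.2, 84.1 and 100.2 CPM in labelled high replicates 1 to 3 and at 79.7, 88.6 and 48.0 CPM in labelled low replicates 1 to 3. The pairs of batches 1 and 2 were level, with log2 ratios of -0.01 and -0.08, and only labelled low replicate 3 lay away from the rest, with a log2 ratio of 1.06 in batch 3. The log2 fold change was 0.28 (adjusted p 0.581 by edgeR), and 0.06 without labelled low replicate 3. Its direction turned without batch 3, to -0.04. Exons of Cast, on the opposite strand, cover 834 of its 7280 exon bases.

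**Figure D2:**
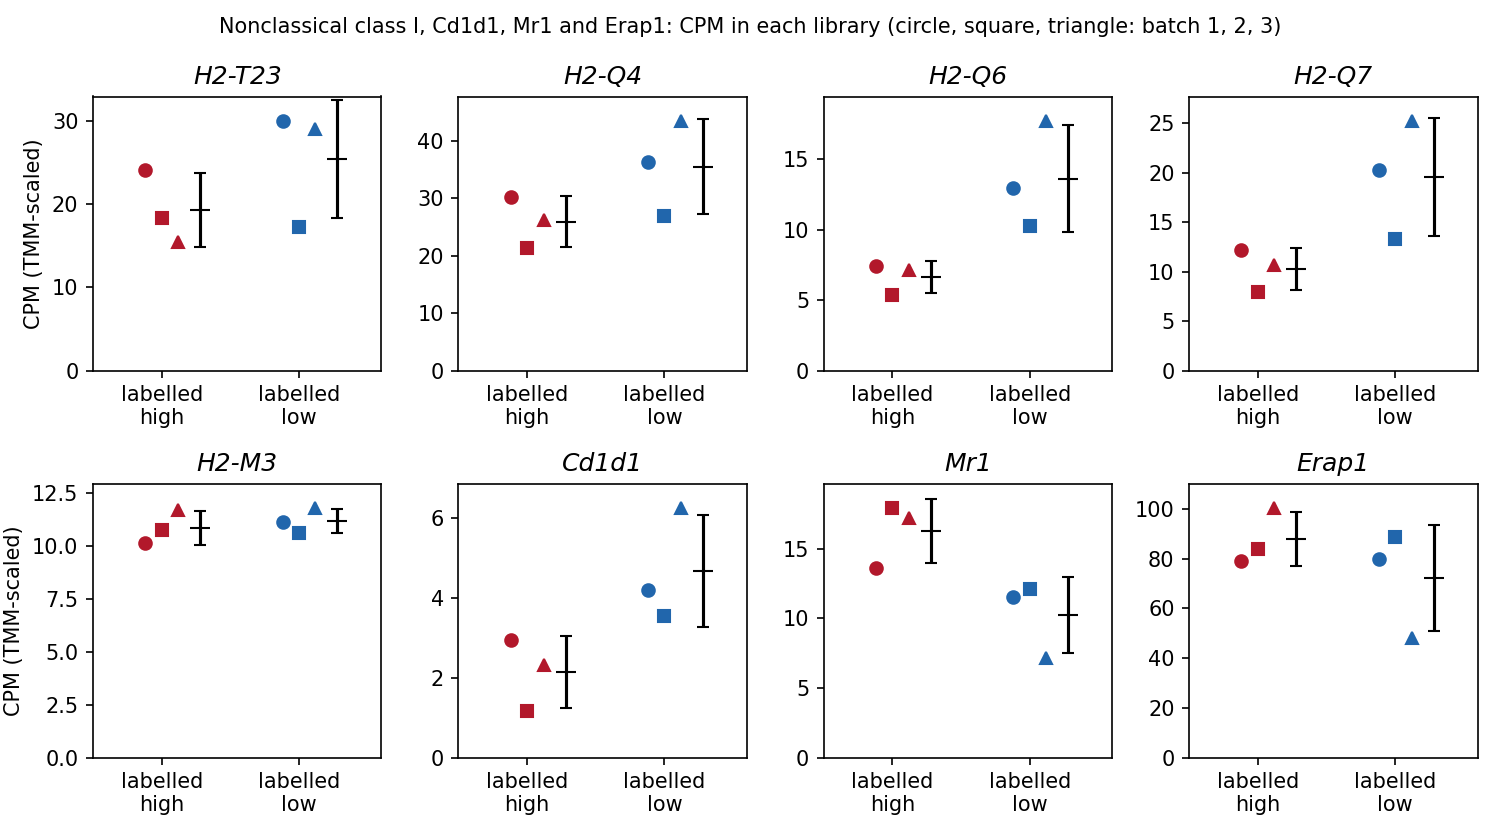
TMM-scaled CPM (y axis, from 0) of the 8 genes in each library, by label, with 1 symbol shape per batch; the black bar is the mean ± SD of 3 libraries. H2-Q6, H2-Q7, Cd1d1 and Mr1 show no overlap between the labels, while H2-T23, H2-Q4, H2-M3 and Erap1 do.

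**Figure D3:**
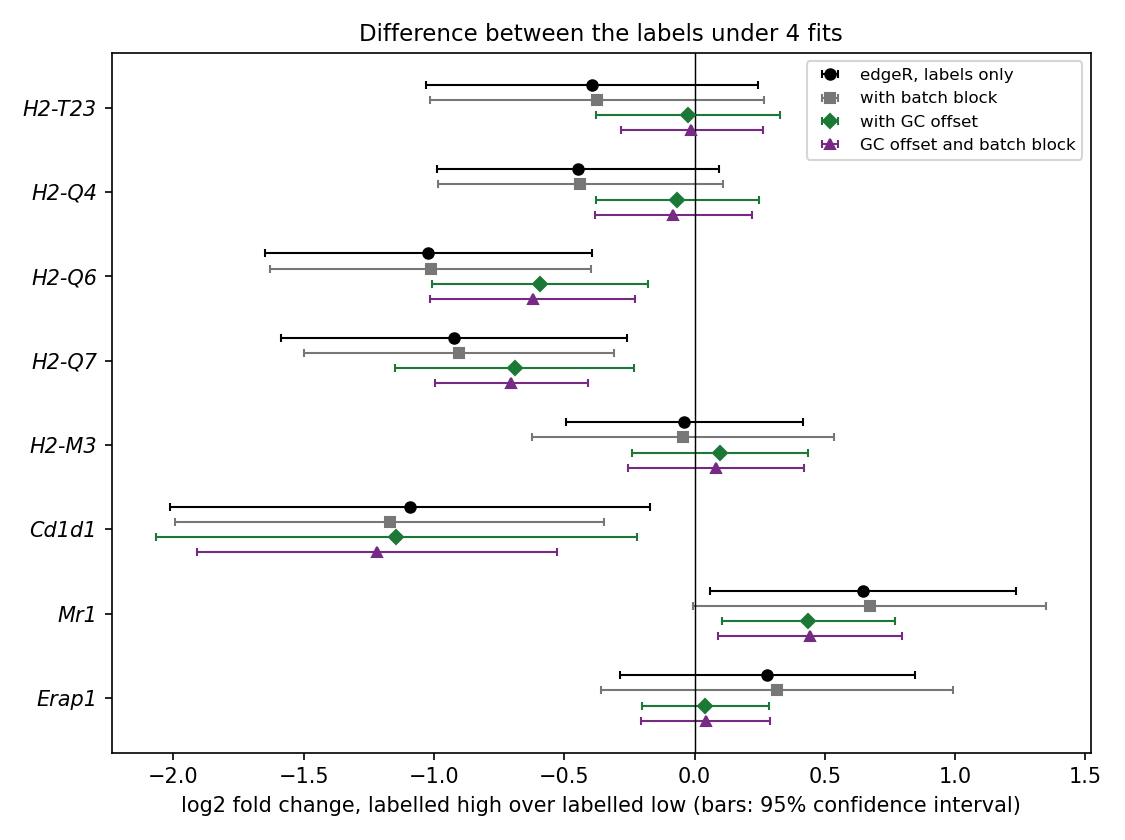
Log2 fold changes (x axis, labelled high over labelled low) with 95% confidence intervals from 4 edgeR fits for the 8 genes. The intervals of H2-Q6, H2-Q7 and Cd1d1 stay below 0 in all 4 fits. With the GC offset H2-Q6 (-0.59), H2-Q7 (-0.69), Mr1 (0.44), H2-Q4 (-0.07), H2-T23 (-0.03) and Erap1 (0.04) lie nearer to 0 than without it, and the interval of Mr1 reaches 0 with the batch block; these intervals are not adjusted for the number of genes.

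Levels of different genes were set side by side per kb of all annotated exons. This order rests on that length, which for Mr1 is 5981 bases where its longest transcript has 3214, and on reads left after those with several alignments were dropped. On this scale Erap1 had the highest level in the libraries labelled high, at 12.1 ± 1.51 CPM per kb, followed by H2-Q4 at 9.99 ± 1.70, whose range it overlapped. H2-M3 (7.55 ± 0.548) and H2-T23 (6.67 ± 1.53) came next and overlapped each other. H2-Q6, Mr1 and H2-Q7 then stood between 3.18 and 2.40 CPM per kb, and Cd1d1 was the lowest at 0.834 ± 0.354. In the libraries labelled low, H2-Q4 came first at 13.7 ± 3.19 CPM per kb, and Cd1d1 at 1.82 ± 0.546 and Mr1 at 1.71 ± 0.453 came last with overlapping ranges. The classical chains H2-K1 and H2-D1 stood at 101 and 184 CPM per kb under the high label, and B2m, the light chain that pairs with all of these heavy chains, at 2292 CPM per kb.

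The classical chains were compared with the nonclassical ones within each library, a ratio that needs no scaling factor. H2-K1 stood at 298 ± 60.2 CPM under the high label and 442 ± 165 CPM under the low label, and B2m at 1971 ± 287 and 1787 ± 342 CPM (adjusted p 0.451 and 0.742 by edgeR). Reads on the 5 nonclassical heavy chains made up 8.77% ± 1.22 of the class I heavy chain reads in the libraries labelled high and 9.27% ± 1.65 in those labelled low (H2-K1 and H2-D1 being the rest, n = 3 each). The ranges overlapped, and the exact two-sided permutation p was 0.7, where 3 against 3 libraries cannot give less than 0.1.

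Against H2-K1 and H2-D1 alone, H2-Q6 made up 0.748%, 0.752% and 1.12% of reads in labelled high replicates 1 to 3 and 1.20%, 1.57% and 1.13% in labelled low replicates 1 to 3. The labels did not overlap, by a margin far inside the counting intervals of labelled high replicate 3 (0.974% to 1.29%) and labelled low replicate 3 (0.915% to 1.37%). Its exact permutation p was 0.1, the smallest possible, and 0.533 after adjustment over 8 such shares. The share of H2-Q7 was 1.33% ± 0.293 and 1.83% ± 0.219, with overlapping ranges (exact permutation p = 0.2, n = 3 each). The shares of H2-T23, 2.44% ± 0.0771 and 2.39% ± 0.482, differed by less than their spread.

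**Figure D4:**
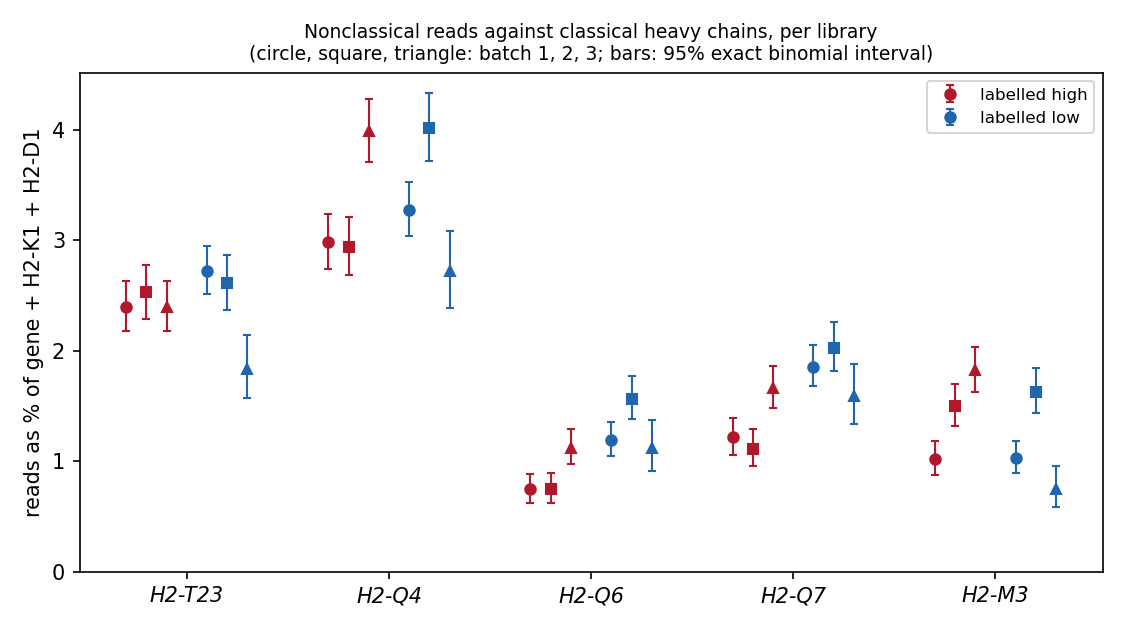
Reads on each nonclassical heavy chain as a percentage of its own reads plus those on H2-K1 and H2-D1 (y axis, from 0), per library, with 95% exact binomial intervals for counting error. For H2-Q6 the libraries labelled low reach from 1.13% to 1.57% and those labelled high from 0.748% to 1.12%, while the labels overlap for the other 4 genes.

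Further genes of the pathway were counted from lists written for this comparison. Over all tested genes 12.1% passed at an unadjusted p of 0.05 by edgeR, 7.99% lower. Of 14 genes of peptide transport and loading, 0 passed in either direction at an adjusted p of 0.05 (2 at the unadjusted p, both lower). Their median log2 fold change was 0.06. Tap1, a chain of the transporter that feeds peptides to class I, stood at 21.8, 19.5 and 19.1 CPM in labelled high replicates 1 to 3 and at 42.3, 29.1 and 76.2 CPM in labelled low replicates 1 to 3. The labels did not overlap, and the adjusted p was 0.213 by edgeR. Of 7 immunoproteasome genes 0 passed (1 at an unadjusted p of 0.05, lower), with a median of -0.32. Psmb8, a catalytic subunit, stood at 32.6 ± 5.67 and 58.1 ± 25.4 CPM (adjusted p 0.393).

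Among 28 regulators of class I genes, 1 was lower and 0 were higher by edgeR, with a median log2 fold change of -0.32, and the 1 was Ciita, the MHC class II transactivator. Nlrc5, the class I transactivator, stood at 24.6 ± 3.03 CPM under the high label and 40.2 ± 14.9 CPM under the low label, with an adjusted p of 0.406. Labelled low replicate 2 lay within the range of the libraries labelled high.

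Among 24 genes of lipid loading and trafficking of CD1d, 1 was lower, Cd74, the invariant chain that can also guide CD1d to endosomes, and 0 were higher, with a median of 0.02. Gm2a, a lipid transfer protein that loads CD1d, stood at 366, 379 and 365 CPM in labelled high replicates 1 to 3 and at 700, 552 and 888 CPM in labelled low replicates 1 to 3. The labels did not overlap, and the adjusted p was 0.14 by edgeR. Ctss and Ctsl of the same list went the other way, also without overlap. Ctss stood at 1981 ± 37.9 CPM under the high label and 1261 ± 160 CPM under the low label (adjusted p 0.242 by edgeR). Ctsl stood at 793 ± 38.4 and 551 ± 104 CPM (adjusted p 0.384).

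Markers of other cell types were compared between the same libraries. Of 14 dendritic cell markers 10 were tested and 4 were lower in the libraries labelled high by edgeR (Flt3, Itgax, Ccr7 and Ccl22), and their summed level was 62.9 to 106 CPM against 316 to 448 CPM. Of 9 B cell markers 2 were tested and 0 called, with sums of 2.23 to 2.93 and 7.40 to 14.6 CPM, and Ighd and Fcer2a had 0 reads under the high label. Of 16 markers of T, NK and NKT cells 4 were tested and 0 called, with sums of 35.1 to 51.3 and 56.6 to 75.1 CPM. All 4 had negative log2 fold changes, with a median of -1.39. The labels did not overlap for Zbtb16 (-1.82, adjusted p 0.145 by edgeR), Cd2 (-1.97, adjusted p 0.167) and Cd4 (-0.957), and did for Il7r (-0.616). Cd3g and Gzmb had 0 reads under the high label and some under the low label. Cd3d, Cd3e, Cd8a and Cd8b1 had 0 reads in all 6 libraries. Of 6 epithelial or tumour markers 3 were tested and 1 was lower, Cdh1, the E-cadherin gene (log2 fold change -1.71, adjusted p 0.018 by edgeR). The sums were 15 to 21.7 and 41 to 42.7 CPM, of which Cdh1 itself held 10.3 ± 1.21 and 33.9 ± 3.70 CPM. Krt8 (1.83 ± 0.972 and 2.09 ± 1.39 CPM) and Krt18 (5.68 ± 3.59 and 5.48 ± 2.39 CPM) overlapped between the labels. The monocyte list (5 tested) had a median log2 fold change of -1.01, the fibroblast list (7 tested) -0.48, the neutrophil list (3 tested) 0.43 and the endothelial list (3 tested) 0.22, each with 0 called. The part of such cells in the values of Cd1d1 and the H2-Q genes was not tested, and in bulk libraries fewer cells of a type and less RNA per cell cannot be told apart.

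By Pearson correlation of log2(CPM + 1) over the 6 libraries, among 8968 protein-coding genes of at least 5 CPM, the gene most like H2-Q6 was Gngt2 (0.997) and the one most like H2-Q7 was Egr2 (0.997). For Cd1d1 it was Nr4a2 (0.972), for H2-Q4 Mgat5 (0.998) and for H2-T23 Pus1 (0.998). For H2-M3 it was Mcm10 (0.989), for Mr1 Cdc14b (0.997) and for Erap1 Ccnl1 (0.999). With 6 libraries that share depth and GC trends, values this high are the top of a ranking and carry no test.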

How the data were processed

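For each library the authors deposited a table of unnormalized gene counts. The submitters' processing notes name HTSeq, STAR, Trimmomatic, FastQC, DESeq2 and GRCm38. Their versions, the annotation release and strand setting: not given in the sources used here. Per the labels' protocols, total RNA was depleted of rRNA and made into stranded libraries. The summary lines stayed out of library sizes (no feature 35.2% to 49.4%, several alignments 7.6% to 17.4%, ambiguous 0.324% to 0.864%). Symbols and exons came from GENCODE M21, which matched 55227 of 55487 genes, and promoters from RefSeq on GRCm38.p6.

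In R 4.3.3, edgeR 4.0.16 (TMM factors, default filter on low counts, quasi-likelihood test, Benjamini-Hochberg adjustment over 14140 genes) compared the labels. The script was tested on simulated data. CPM are counts over TMM-scaled library sizes. The standard error is the log2 fold change over the square root of F. The labels give the replicate number as a batch. Deviations from the label means correlated at 0.16, 0.34 and -0.12 within batches 1, 2 and 3. Between libraries of different batches they correlated at -0.49 to 0.35, a range that takes in the values within batches. No 2 libraries differed by so little as sampling noise. Alternatives included DESeq2 1.42.0, limma 3.58.1 (voom), RLE factors, total counts, other filters, the block, a GC offset (local regression, span 0.4) and omitted libraries. All 8 genes are described. Names from a list were limited to its 4 genes of lowest p whose mean reached 1 CPM under either label, plus 3 genes per member by likeness; genes with 0 reads were named after seeing the values. The members and lists were chosen with earlier results of these data known.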

Additional observations from a re-analysis of the deposited data

How the results depend on the processing

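Over 17 alternatives, H2-Q6, H2-Q7, H2-Q4, H2-T23 and Cd1d1 kept a negative and Mr1 a positive log2 fold change, and no alternative called H2-T23, H2-Q4, H2-M3, Cd1d1, Mr1 or Erap1. For H2-M3 the sign turned with total counts (0.25), no filter (0.032), the GC offset (0.097), that offset with the replicate block (0.081) and without labelled high replicate 1 (0.029; -0.093 to 0.029 when 1 library was left out), and for Erap1 without batch 3 (-0.04). Members called lower numbered 1 (H2-Q7) with the GC offset and block, and 0 to 2 when 1 library was left out (2 without labelled low replicate 2). Members at an unadjusted p of 0.05, a count examined after seeing the data, numbered 4 (12.1% of all genes), 2 without labelled low replicate 3 (8.91%), and from 0 (total counts) to 6 (without labelled low replicate 2, where 35% of all genes passed) over all alternatives. With the replicate block alone, 0 members were called and their log2 fold changes lay between -1.17 (Cd1d1) and 0.67 (Mr1), so the block changed no call among them.

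Over all genes, 13 were higher and 50 lower. Higher and lower were 108 and 266 with DESeq2, 113 and 436 without a filter, 150 and 216 with the GC offset, 240 and 374 with offset and block, and 0 and 28 without batch 3. Total counts gave 8 higher and the block 1 higher. Leaving out 1 library gave 0 to 246 higher and 8 to 784 lower, the highest without labelled low replicate 2. Of 24 class I machinery genes 0 were called, against 1 lower with DESeq2, no filter, the GC offset and the offset with block, and 0 to 4 when 1 library was left out. Their median of -0.056 became 0.201 with total counts, 0.021 without a filter, 0.006 with offset and block, and ranged from -0.143 to 0.039 when 1 library was left out. The nonclassical share of heavy chain reads differed by -0.50 percentage points, 0.29 without H2-Q6 and H2-Q7, and -1.35 to 0.302 when 1 library was left out (0.302 without labelled low replicate 2). The causes were not tested.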

Other observations

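The other class I-like genes were tested in 11 of the 25 that the count tables hold. By edgeR 0 were called in either direction, and 5 of the 11 log2 fold changes were negative. Over all tested genes 12.1% passed at an unadjusted p of 0.05, 4.06% higher. Of the 11, 3 passed at that p, all of them higher in the libraries labelled high. The 3 were Raet1d and Ulbp1, ligands of the activating receptor NKG2D, and Mill2, a class I-like gene outside the MHC. Raet1d stood at 25.4, 21.1 and 32.8 CPM in labelled high replicates 1 to 3 and at 12.6, 15.6 and 10.9 CPM in labelled low replicates 1 to 3. The labels did not overlap (log2 fold change 1.01, standard error 0.24, adjusted p 0.17 by edgeR). Ulbp1 stood at 30.4 ± 5.16 and 19.3 ± 6.12 CPM with overlapping ranges.

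Klrk1, which encodes NKG2D, was lower in the libraries labelled high, with 3, 4 and 4 reads in replicates 1 to 3 against 67, 96 and 11 reads in labelled low replicates 1 to 3 (log2 fold change -4.28, adjusted p 0.0102 by edgeR). It was the 1 gene called among 8 tested receptors of class I and class I-like molecules. Klrd1, Klrc1 and Klrc2, the chains of the receptors for Qa-1, had 0 reads in all 3 libraries labelled high, as did Cd160. These had some reads under the low label, and Klrc3 had 0 reads in all 6 libraries. None of them had enough reads to be among the 8 tested, so their zeros show no difference between the labels. Neither Raet1d nor Ulbp1 passed the test.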
